A study of Mus musculus with 6 samples.

Results

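The regulators of mitochondrial biogenesis are 10 genes chosen by name: the coactivators Ppargc1a and Ppargc1b, the nuclear receptors Esrra, Esrrg, Ppara and Ppard, the transcription factors Nrf1 and Gabpa, the mitochondrial DNA-binding factor Tfam and the fusion protein gene Mfn2. They were chosen with earlier results of these data known. They are 10 of the 18193 genes that the array reads through a probe set with a single gene symbol. Their transcripts were read by 26 such probe sets, and 1 more probe set is shared between Ppard and another gene. RNA came from all hind limb skeletal muscle of 3 mice deficient in the laminin alpha 2 chain and 3 wild type mice, all 4 weeks old, with 1 Affymetrix array per mouse. Laminin alpha 2 is a chain of the laminin that ties the muscle fibre to its basement membrane. The labels name neither the allele, the strain nor the sex of the mice. They call the 3 samples of each group biological replicates, isolated individually. The question was whether the transcripts of these regulators differ between deficient and wild type muscle, and how they stand beside the genes they are known to control.

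PGC1 coactivators do not bind DNA themselves. They dock on nuclear receptors such as the ERRs and PPARs and on NRF1, and so raise transcription of nuclear genes for respiration and fat oxidation. NRF1 and the ETS factor GABP act on promoters of respiratory chain genes and of Tfam, whose product enters mitochondria and is needed to copy and transcribe their DNA. In skeletal muscle this system is known for its response to exercise and for the high mitochondrial content of oxidative fibres.

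The promoter letters of 4 members are shown because they carry short motifs of this system. Each is the 150 bases just before an annotated transcription start (RefSeq, build GRCm38.p6), written 5′ to 3′ along the gene's strand, with the motif in capitals on whichever strand it was read. For Ppargc1a (chr5:51567726-51567875, minus strand) the capitals mark TGACG, the short form of the element bound by CREB. For Tfam (chr10:71238045-71238194, minus strand) and Gabpa (chr16:84834974-84835123, plus strand) they mark CCGGAAG, the core bound by GABP and other ETS factors. For Ppara (chr15:85735626-85735775, plus strand) they mark the palindrome bound by NRF1, which is GCGCA followed by its reverse complement.
Ppargc1a: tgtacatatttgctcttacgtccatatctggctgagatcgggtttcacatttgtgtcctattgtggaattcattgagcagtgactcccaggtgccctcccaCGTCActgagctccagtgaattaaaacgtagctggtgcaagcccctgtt
Tfam: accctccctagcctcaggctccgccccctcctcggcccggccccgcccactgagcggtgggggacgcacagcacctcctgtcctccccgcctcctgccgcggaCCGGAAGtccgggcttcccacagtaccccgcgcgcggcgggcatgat
Gabpa: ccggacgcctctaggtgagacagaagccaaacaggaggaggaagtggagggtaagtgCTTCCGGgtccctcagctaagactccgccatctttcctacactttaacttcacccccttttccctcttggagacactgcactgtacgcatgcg
Ppara: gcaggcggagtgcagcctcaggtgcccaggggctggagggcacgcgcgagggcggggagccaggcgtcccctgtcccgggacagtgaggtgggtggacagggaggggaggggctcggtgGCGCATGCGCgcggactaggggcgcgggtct
The motif began 49 bases before the start in Ppargc1a, 47 in Tfam, 93 in Gabpa and 31 in Ppara, and none of these matches overlapped another motif searched. Promoters of 300 bases were searched on both strands in 9 of the 10 members. The GABP core was present in 2 of the 9, against 18.2% of tested genes with a promoter and 9.93% of all 27025 genes in the table. The NRF1 palindrome was present in 1 of the 9, against 2.19% of tested genes and 1.07% of all genes. The CREB element was present in 4 of the 9, Ppargc1a, Ppara, Ppard and Mfn2, against 33.6% and 23% of the same sets. The ERR element TNAAGGTCA was in 0 of the 9, against 0.9% of tested genes. A match of letters is a description of these windows only.

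Facts of the libraries that bear on the members come first. Lama2, which encodes the chain the mice are deficient in, read 82, 31.1 and 140.4 signal units in the deficient libraries, against 428.7, 415.6 and 326.2 in wild type, so the groups did not overlap. It fell by 2.17 on the log2 scale (SE 0.374, adjusted p = 0.0207). That call was lost without deficient replicate 1 (adjusted p = 0.0592), wild type replicate 1 (0.103) and wild type replicate 2 (0.0837). Whether its probe set covers the sequence changed in these mice is not known here. Markers of skeletal muscle fibres were bright in every library, with 10 of 10 measured and a summed signal of 86395 to 118216 in deficient and 115151 to 122447 in wild type libraries. The Y-linked Eif2s3y read 414.6, 573.7 and 9.1 in deficient replicates 1, 2 and 3 and 474.1, 466.8 and 10.7 in wild type replicates 1, 2 and 3. Xist, transcribed from an inactive X chromosome, read 1839.1 and 1163.1 in replicate 3 of the deficient and wild type groups. Deficient replicate 1 carried both transcripts, with 396.3 units of Xist. For the actin control, the ratio of 5 prime to 3 prime signal, a sign of RNA integrity, was 0.51 to 0.819 in deficient and 1.04 to 1.15 in wild type libraries. For the Gapdh control it overlapped, at 0.886 to 1.15 in deficient and 0.961 to 1.19 in wild type libraries. Hair follicle and skin markers summed to 180.6 to 374 in deficient libraries and to 254.8 to 2158.5 in wild type libraries, highest in wild type replicates 1 and 2.

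None of the 10 regulators passed the test between deficient and wild type muscle. Calls were made in limma over 13104 genes, each read by its brightest probe set, where the Benjamini-Hochberg adjusted p was under 0.05, and 2.69% of all genes tested were called (353 genes). All 10 members passed the filter on dim probe sets. At an unadjusted p under 0.05 the count was also 0 of 10, where 18.9% of genes tested stood. Their log2 fold changes, taken on log2(signal + 16) as deficient minus wild type, ran from -0.28 to 0.48 with a median of 0.05, beside a median of 0.02 over all genes tested. Of the 10, 6 were positive and 4 negative. A p that misses the threshold does not show equal levels, so each value is given with its 95% interval. The interval lay within 2-fold in either direction for 9 of the 10, Nrf1 being the exception. For 8 of the 10, the values within each group spanned a wider log2 range than the difference between the group means. The count of called members stayed at 0 under each of the 19 alternatives run for it, with a lowest adjusted p of 0.194. In bulk muscle, fewer cells of a type and less RNA per cell cannot be told apart.

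**Figure D1:**
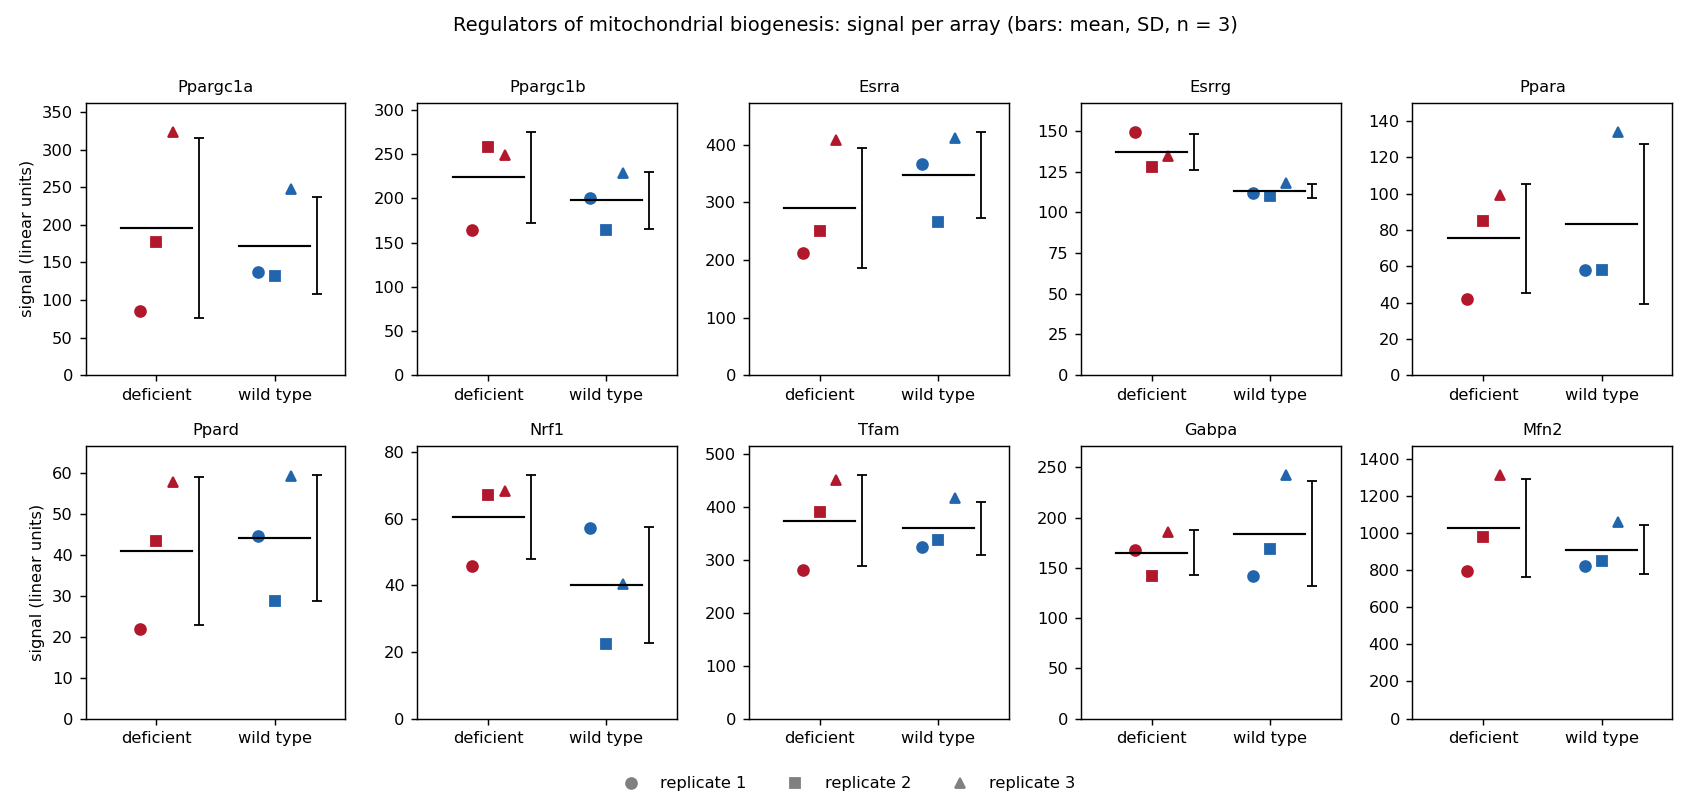
Signal per array of the 10 regulators, each read by its brightest probe set, in linear units on an axis that starts at 0. Red symbols are the 3 deficient mice and blue symbols the 3 wild type mice, the shape gives the replicate number, and bars give mean and SD. The groups overlap in every panel but that of Esrrg.

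Ppargc1a encodes PGC1 alpha, the coactivator that exercise and cold induce. Its brightest probe set (1434100_x_at) read 86, 177.5 and 324 units in deficient libraries, against 137.9, 132.5 and 247.3 in wild type. Deficient replicate 1 was the lowest of all 6 libraries and deficient replicate 3 the highest, so the deficient values enclosed all the wild type values. The means were 196 ± 120 and 173 ± 64.8 units in deficient and wild type muscle (SD, n = 3 each). This gave a log2 fold change of 0.05 (95% interval -0.85 to 0.96, adjusted p = 0.964).

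All 5 probe sets of Ppargc1a passed the filter, and they did not give 1 picture. A probe set designed from the same sequence record as the brightest (1434099_at) read 77.3, 123.7 and 283.8 units in deficient libraries, against 99.9, 106.3 and 270.1 in wild type. Probe set 1437751_at read 84.2, 75.6 and 145.8 units in deficient libraries, against 104.8, 101.4 and 155.1 in wild type. Probe set 1456395_at read 54.8, 62.7 and 115.8 units in deficient libraries, against 84.9, 84.1 and 128.8 in wild type. In both of these sets the deficient mean was the lower, while the groups overlapped. The remaining set, 1460336_at, read 43.4, 23.5 and 56.8 units in deficient libraries, against 64.9, 85.3 and 84 in wild type. There all deficient values were below all wild type values, and 21.8% of all probe sets tested had groups without overlap. In the fit over 27026 probe sets, where 1.41% were called, its log2 fold change was -0.75 (95% interval -1.35 to -0.16) and it was not called (adjusted p = 0.202). Of the 21 member probe sets that passed the filter, it alone had an unadjusted p under 0.05, a level that 16.4% of all probe sets tested reached. Under other settings the adjusted p was 0.105 to 0.466. The positions of the probe sets along the transcript are not known here. The log2 fold changes of the other 4 ran from -0.33 to 0.05, and only that of the brightest set was positive.

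**Figure D2:**
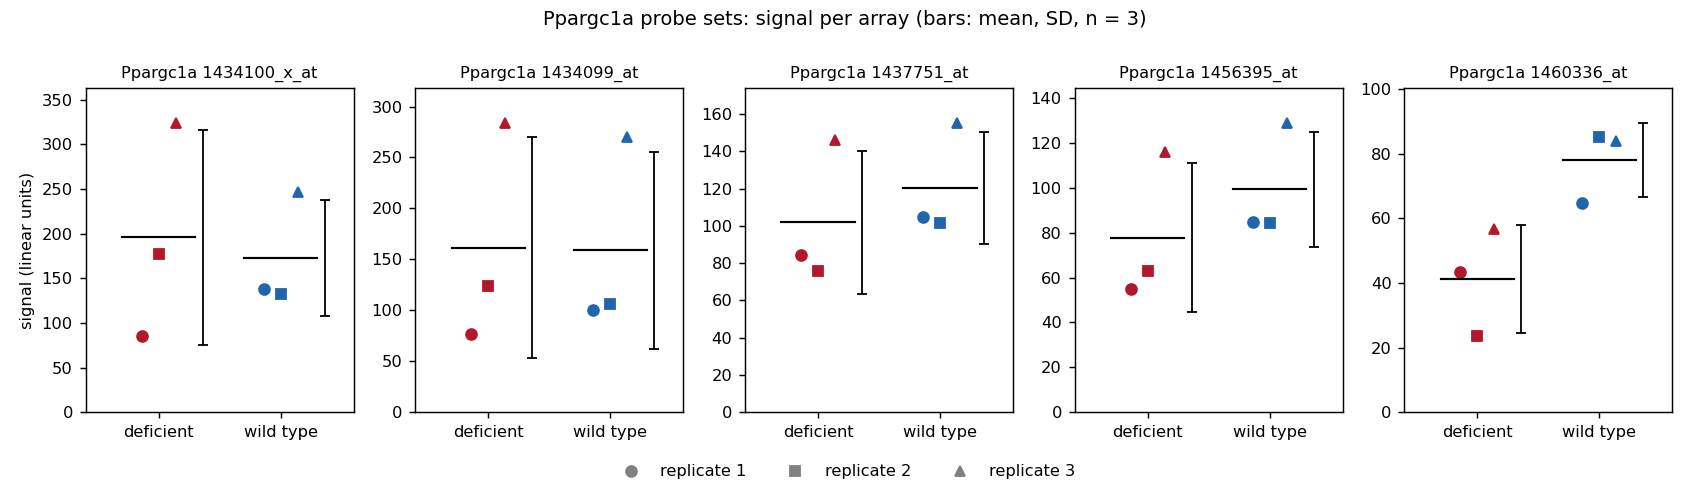
Signal per array of the 5 Ppargc1a probe sets in linear units, each panel on its own axis from 0. Red symbols are deficient and blue symbols wild type mice, shapes give the replicate number, and bars give mean and SD (n = 3 each). Replicate 3 is the highest of its group in both groups in 4 panels, and only in 1460336_at do the groups not overlap.

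Ppargc1b encodes PGC1 beta, the close relative of PGC1 alpha. Its single probe set (1449945_at) read 164.2, 257.6 and 249.2 units in deficient libraries, against 200.4, 164.2 and 228.8 in wild type. The lowest deficient and the lowest wild type library had the same value, and the groups overlapped. The log2 fold change was 0.15 (95% interval -0.35 to 0.66, adjusted p = 0.767).

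Esrra encodes ERR alpha, an orphan receptor through which PGC1 alpha acts on respiratory genes. It read 211.4, 250 and 408.5 units in deficient libraries, against 366.6, 266.1 and 411.5 in wild type (1460652_at). Its log2 fold change was the lowest of the 10 members, at -0.28 (95% interval -0.88 to 0.31, adjusted p = 0.614), and deficient replicate 3 lay within the wild type values. Its second probe set (1442864_at) pointed the other way, with 30.1, 47.8 and 65.2 units in deficient libraries, against 30.3, 27 and 46.1 in wild type. That set had a log2 fold change of 0.32 (adjusted p = 0.613).

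Esrrg encodes ERR gamma, a receptor found in oxidative muscle. It read 149.4, 127.5 and 134.3 units in deficient libraries, against 112.1, 109.7 and 118.1 in wild type (1455267_at). Among the member genes only here did the groups not overlap, and 24.7% of all genes tested were without overlap. The means were 137 ± 11.2 and 113 ± 4.33 units in deficient and wild type muscle (SD, n = 3 each). The log2 fold change of 0.24 was not called (95% interval -0.15 to 0.64, adjusted p = 0.496). It kept its sign under all 20 alternatives, from 0.18 to 0.29. The other 2 probe sets of Esrrg did not pass the filter, with no value above 26.8 units in any library.

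Ppara and Ppard encode the lipid-sensing receptors PPAR alpha and PPAR delta, which switch on genes of fat oxidation. The brightest Ppara probe set (1457721_at) read 41.9, 84.8 and 99.1 units in deficient libraries, against 57.8, 58.1 and 134 in wild type. The groups overlapped, with a log2 fold change of -0.10 (95% interval -0.87 to 0.67, adjusted p = 0.913). Its other 2 probe sets had log2 fold changes of -0.22 (1439675_at) and 0.39 (1449051_at), with adjusted p of 0.793 and 0.733. Ppard read 21.8, 43.4 and 57.7 units in deficient libraries, against 44.5, 28.6 and 59.2 in wild type (1439797_at). These groups overlapped too, with a log2 fold change of -0.10 (95% interval -0.78 to 0.58, adjusted p = 0.900). A second Ppard probe set did not pass the filter. The probe set shared with another gene read 47.1, 61.2 and 53.5 units in deficient and 53.2, 36.3 and 30.6 in wild type libraries and is assigned to neither.

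Nrf1 encodes nuclear respiratory factor 1. Its brightest probe set (1434627_at) read 45.9, 67.2 and 68.1 units in deficient libraries, against 57.3, 22.5 and 40.4 in wild type. Its log2 fold change of 0.48 was the highest of the 10 members (95% interval -0.13 to 1.10, adjusted p = 0.380), and deficient replicate 1 lay within the wild type values. A second set (1424787_a_at) had a log2 fold change of -0.16 (adjusted p = 0.796). It read 49.3, 44.7 and 37.5 units in deficient libraries, against 37.7, 69.9 and 47.7 in wild type. Another (1445914_at) had a log2 fold change of 0.60 (adjusted p = 0.419), with 15.4, 49.3 and 62.2 units in deficient libraries, against 15.5, 20.9 and 23.5 in wild type. The last did not pass the filter. The genes whose pattern over the 6 arrays was most like that of Nrf1, by Pearson correlation of log2 values, were Fnbp1 (0.988), Ankrd13d (0.988), Klhdc4 (0.98) and Rps27 (0.979). None of these was called, and all 6 arrays share the 2 groups, so the correlations are a description only.

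Gabpa encodes the DNA-binding subunit of GABP. It read 167.3, 142.2 and 186 units in deficient libraries, against 141.4, 168.5 and 242 in wild type (1450664_at). The groups overlapped, with a log2 fold change of -0.12 (95% interval -0.63 to 0.39, adjusted p = 0.828). Its second probe set (1450665_at) read 79.4, 69.3 and 50.8 units in deficient libraries, against 82.6, 117.5 and 67.5 in wild type, with a log2 fold change of -0.34 (adjusted p = 0.539). Both sets had lower means in deficient muscle.

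Tfam encodes the factor that packages and transcribes mitochondrial DNA. It read 280.5, 389 and 450.1 units in deficient libraries, against 322.9, 337.8 and 415.6 in wild type (1448224_at). Deficient values lay on both sides of the wild type values. The means were 373 ± 85.9 and 359 ± 49.8 units in deficient and wild type muscle (SD, n = 3 each). The log2 fold change was 0.04 (95% interval -0.45 to 0.52, adjusted p = 0.951). The second set (1456215_at) had a log2 fold change of -0.09 (adjusted p = 0.898).

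Mfn2 encodes mitofusin 2, which joins outer mitochondrial membranes and is itself induced by PGC1 alpha and ERR alpha. It read 793.5, 975.9 and 1310.7 units in deficient libraries, against 823.4, 847.7 and 1060.3 in wild type (1448131_at). The groups overlapped, with a log2 fold change of 0.15 (95% interval -0.33 to 0.62, adjusted p = 0.754). Its second probe set did not pass the filter, with no value above 13.5 units. Of the 26 probe sets with a single symbol, 21 passed the filter and 5 did not. Of the 21, 0 were called, 9 had a positive and 12 a negative log2 fold change, and the groups did not overlap in 2, where 1.41% of all probe sets tested were called and 21.8% were without overlap.

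**Figure D3:**
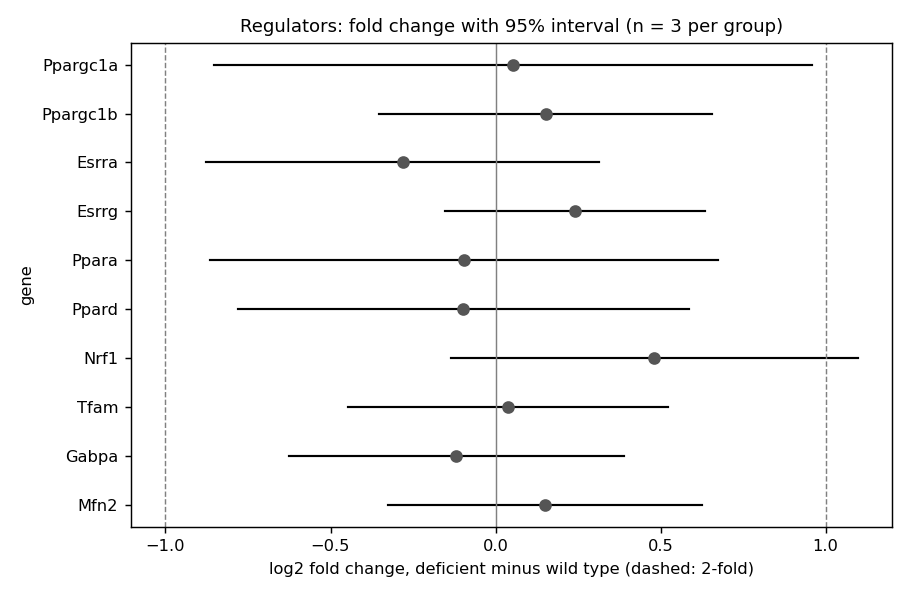
Log2 fold change, deficient minus wild type, of the 10 regulators on the horizontal axis, with the 95% interval of limma as a line (n = 3 per group). Dashed lines mark 2-fold. All 10 intervals include 0, and that of Nrf1 reaches past 2-fold.

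Single libraries stood apart across the members. In 7 of the 10 genes replicate 3 had the highest value of its group in both groups, which held for 17.5% of all genes tested. With each array centred on its median it held for 6 of the 10, against 11% of all genes tested. Over member probe sets that passed the filter it held for 14 of 21, against 20.3% of all probe sets. For Ppargc1a it held in 4 of 5 probe sets. The exceptions among the genes were Ppargc1b, highest in deficient replicate 2, Esrrg, highest in deficient replicate 1, and Nrf1, highest in wild type replicate 1. Deficient replicate 1 was the lowest of its group for 8 members, all but Esrrg and Gabpa. The share over all genes tested was not counted for this, and the array median of that library, 20 units, was the lowest of all. The 2 libraries of replicate 3 were those with hardly any Eif2s3y signal and the most Xist, and their array medians of 26.1 (deficient) and 24.5 (wild type) units were the highest of their groups. The part of these features in the members' values was not tested. Without both, the log2 fold change of Ppargc1a was -0.11 and that of Ppara 0.05. Nrf1 was at -0.11 in that fit, but on 1424787_a_at, which had become its brightest probe set. That value therefore does not show how 1434627_at, at 0.48 with all arrays, depends on replicate 3. None of these genes was called.

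**Figure D4:**
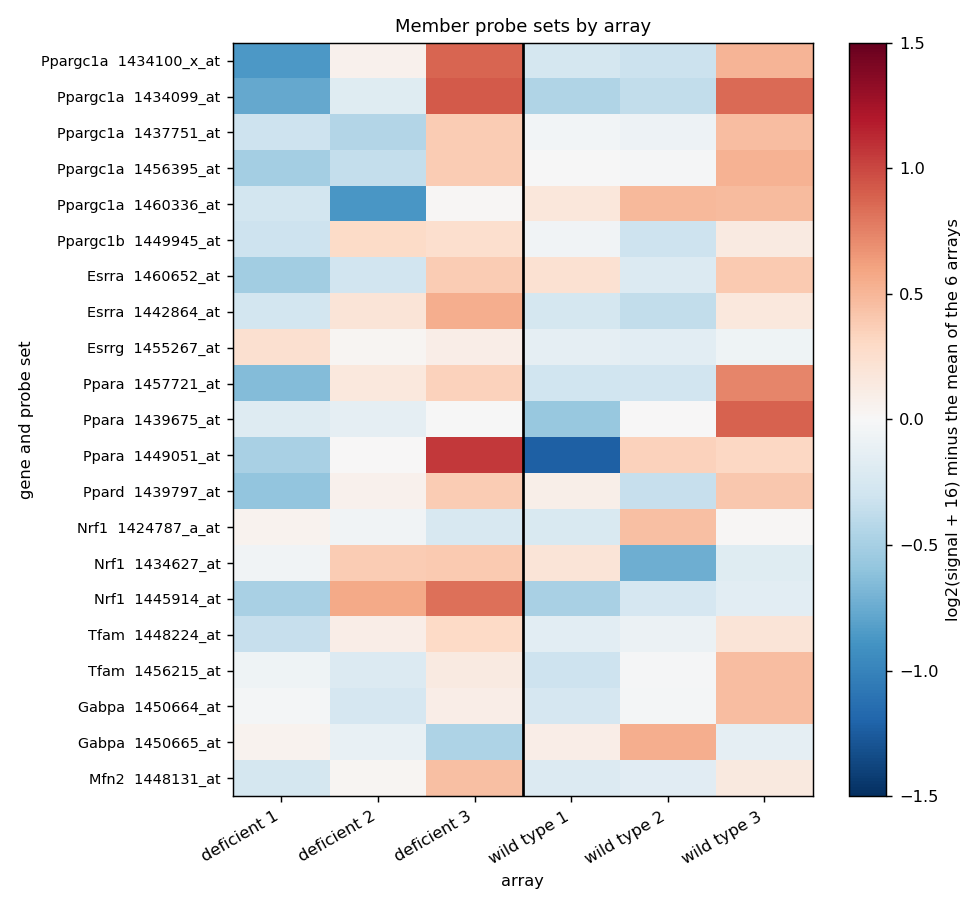
Value of the 21 member probe sets that passed the filter in each array, as log2(signal + 16) minus the mean of the 6 arrays, with deficient arrays left of the line and wild type arrays right of it. Red is above and blue below that mean. The columns of deficient replicate 3 and wild type replicate 3 are mostly red, and that of deficient replicate 1 is mostly blue.

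Around the regulators, 8 lists of their partners, upstream kinases and targets were read in the same fit. The lists were chosen with earlier results of these data known. Their counts beside the shares over all genes are therefore a description only. Of 220 genes listed, 208 had a probe set with a single symbol and 206 were tested. Of the 206, 14 fell, 0 rose and 192 did not pass, where 1.44% of all genes tested were called lower and 1.25% higher. The median log2 fold change was -0.29 over the 206, 0.05 over the regulators and 0.02 over all genes tested. That count depended on single libraries. It was 5, 3 and 22 without deficient replicates 1, 2 and 3, and 1, 0 and 5 without wild type replicates 1, 2 and 3. It was 9 under quantile normalization, 6 with no filter and 3 without the intensity trend of the variance prior. The GABP core shown above was in 53.3% of the promoters of fusion and fission genes, 47.4% of mitochondrial DNA genes, 39.1% of import genes and 25.7% of respiratory chain genes. It was in 17.4% of upstream kinases, 17.4% of other ERR and PGC1 targets, 16.7% of PPAR targets and 9.52% of coactivators and partners, beside 18.2% of tested genes. The ERR element was in 2 of 35 respiratory chain promoters and 1 of 23 of upstream kinases. It was in 0 of 23 of other ERR and PGC1 targets and in no promoter of the remaining lists. The NRF1 palindrome was in at most 1 promoter per list. The CREB element was in 33.3% to 43.5% of each list, beside 33.6% of tested genes. The actin control ratio was lower in all 3 deficient libraries, as given above, and its part in the lists' values was not tested.

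**Figure D5:**
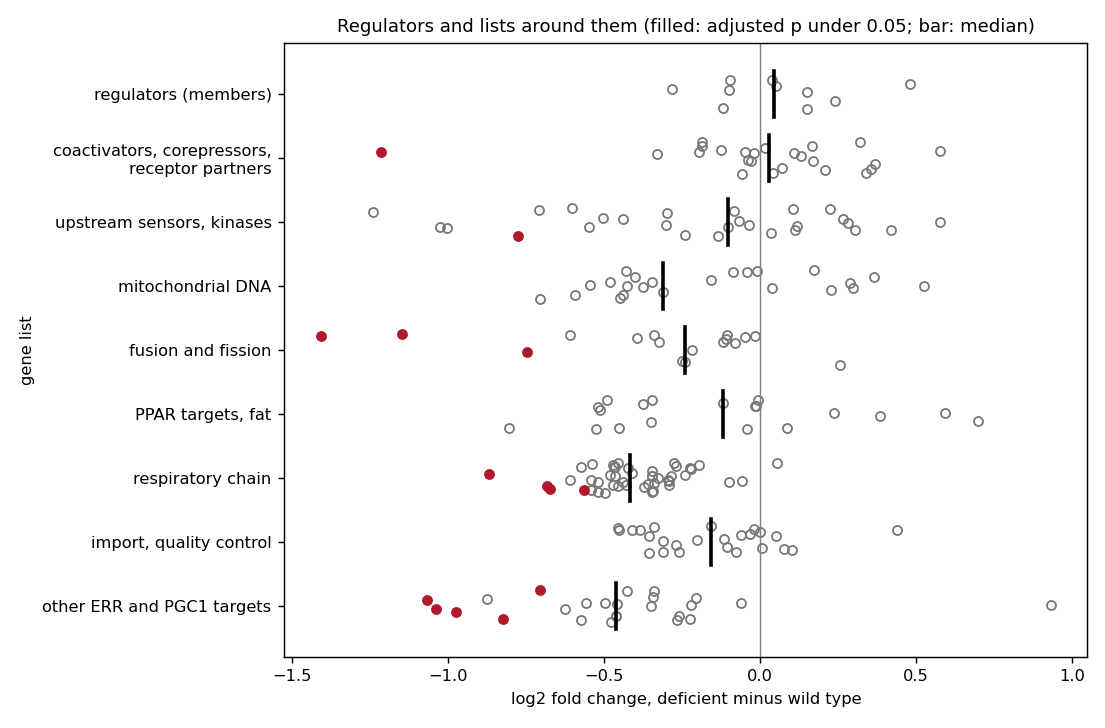
Log2 fold change, deficient minus wild type, of each tested gene of the regulators and of the 8 lists. Filled red points are genes with an adjusted p under 0.05, open points the rest, and black bars list medians. The regulators lie around 0, while the medians of the respiratory chain and of the other ERR and PGC1 targets are -0.42 and -0.46.

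Among 24 tested coactivators, corepressors and receptor partners, 1 fell, 0 rose and 23 did not pass, with a median of 0.03. The gene that fell was Rxrg, encoding RXR gamma, a partner with which PPARs bind DNA. It read 83.2, 134.4 and 71.8 units in deficient libraries, against 297.2, 219.7 and 206.4 in wild type, with no overlap. The log2 fold change of Rxrg was -1.22 (SE 0.248, adjusted p = 0.0367). The call was lost with 5 of the 6 libraries left out singly, with a highest adjusted p of 0.15 without wild type replicate 1. It was also lost with no filter (0.0581) and without the intensity trend (0.0632). Yy1, a factor that works with PGC1 alpha, read 579.7, 635.9 and 681.1 units in deficient libraries, against 376.1, 419.4 and 460.4 in wild type, and was not called (log2 fold change 0.58, adjusted p = 0.108). It was called higher with a block for Y-linked transcripts (adjusted p = 0.0395), while the mean of its probe sets gave 0.18 (adjusted p = 0.632). Pprc1, the remaining PGC1 family member, had a log2 fold change of 0.32 (adjusted p = 0.435), and Kat2a, the acetyltransferase that acts on PGC1 alpha, one of 0.37 (adjusted p = 0.333), or 0.059 with the mean of its probe sets.

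Of 27 upstream sensors and kinases, 1 fell, 0 rose and 26 did not pass, with a median of -0.10. Sirt3, the mitochondrial deacetylase, read 120.3, 128.2 and 127.9 units in deficient libraries, against 240, 229.2 and 210.1 in wild type. The fold change was -0.78 on the log2 scale (SE 0.173, adjusted p = 0.0486). The call was lost with 5 of the 6 libraries left out singly, with a highest adjusted p of 0.176 without wild type replicate 2. With all libraries it was lost under median centring (0.0662), quantile normalization (0.0507) and no filter (0.0677). It was also lost with a pseudocount of 1 (0.05002) and without the intensity trend (0.0744). The subunits of AMP-activated kinase, the energy sensor that acts on PGC1 alpha, came next. Prkag3 read 335.8, 535.3 and 235 units in deficient libraries, against 1013.7, 883.7 and 677.5 in wild type (log2 fold change -1.24, adjusted p = 0.0544). Prkab2 had a log2 fold change of -1.03 (adjusted p = 0.0618), and the calcium-dependent kinase gene Camk2a an adjusted p of 0.0629. None of these 3 was called in this fit. The groups overlapped in none of them, but 24.7% of all genes tested were without overlap. These 3 were also named for their small p. With a block for Y-linked transcripts all 3 were called lower, at an adjusted p of 0.00516 for Prkag3, 0.0131 for Prkab2 and 0.0221 for Camk2a. Prkab2 was also called with the mean of its probe sets (adjusted p = 0.0241) and without deficient replicate 3 (0.00646), and Prkag3 with a robust prior (0.0481). Without replicate 3 of both groups the adjusted p was 0.0193 for Prkag3 and 0.00576 for Prkab2. Other settings went the other way. With the mean of its probe sets Camk2a was at -0.68 and not called (adjusted p = 0.243). With single libraries left out, the highest adjusted p was 0.201 for Prkag3, 0.208 for Prkab2 and 0.218 for Camk2a.

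Fusion and fission genes, the partners of Mfn2 in shaping mitochondria, had 3 that fell, 0 that rose and 14 that did not pass, of 17 tested, with a median of -0.24. Gdap1, an outer membrane protein linked to fission, read 24.9, 25.9 and 23.1 units in deficient libraries, against 67.6, 113.9 and 99.6 in wild type. Its log2 fold change was -1.41 (SE 0.226, adjusted p = 0.0162), with the call lost without deficient replicate 2 (0.0658) and wild type replicate 2 (0.0832). With the mean of its probe sets it was -0.71 and not called (adjusted p = 0.102). Mtfp1, an inner membrane protein needed for fission, read 188.8, 248.8 and 249.3 units in deficient libraries, against 565.8, 511.7 and 495.4 in wild type. Its log2 fold change was -1.15 (SE 0.185, adjusted p = 0.0162), with the call lost without deficient replicate 2 (0.0616), wild type replicate 1 (0.0954) and wild type replicate 2 (0.0752). Chchd3, part of the complex that shapes cristae, had a log2 fold change of -0.75 (adjusted p = 0.0452), lost with 5 of the 6 libraries left out singly (highest 0.195 without wild type replicate 2). With the mean of its probe sets it was -0.32 and not called (adjusted p = 0.398). Its call was also lost under median centring (0.0825), quantile normalization (0.0613), no filter (0.0669) and without the intensity trend (0.103).

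Of 23 genes for mitochondrial DNA transcription and maintenance, the processes that Tfam serves, 0 passed by limma, with a median of -0.31. An unadjusted p under 0.05 held for 7 of the 23, beside 18.9% of all genes tested. Endog, a mitochondrial nuclease, had the smallest p, with a log2 fold change of -0.71 (adjusted p = 0.0712). It was called with the mean of its probe sets (adjusted p = 0.0373) and with a block for Y-linked transcripts (0.0273). Tefm, the elongation factor of the mitochondrial polymerase, had a log2 fold change of -0.43 (adjusted p = 0.216). Of 19 PPAR targets of fat metabolism, 0 passed, with 2 at an unadjusted p under 0.05 and a median of -0.12. Hadhb and Cpt2, enzymes of fat oxidation, had log2 fold changes of -0.52 and -0.45 (adjusted p = 0.153 and 0.250), or -0.33 and -0.23 with the mean of their probe sets. Hadhb was called with a block for Y-linked transcripts (adjusted p = 0.0363). Hadha and Fabp3 had log2 fold changes of -0.53 and -0.51 (adjusted p = 0.280 and 0.286). Both were called without deficient replicate 3 (0.0307 and 0.0260) and without replicate 3 of both groups (0.0430 and 0.0214). With other single libraries left out their adjusted p reached 0.501 and 0.532. Of 25 import and quality control genes, 0 passed, with 4 at an unadjusted p under 0.05 and a median of -0.16. Timm23, the channel of the inner membrane, had a log2 fold change of -0.41 (adjusted p = 0.173), or -0.26 under quantile normalization.

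The nuclear targets of the system had the lowest medians. Of 46 genes of the respiratory chain, cytochrome c and ATP synthase, 4 fell, 0 rose and 42 did not pass. Those that fell were Cox7a1, Atp5g1, Ndufa10 and Sdhb. Negative fold changes held for 45 of the 46, with a median of -0.42. The groups did not overlap for 41 of the 46, all of them lower in deficient muscle, beside 24.7% of all genes tested without overlap in either direction. Sdhb, the iron-sulphur subunit of complex II, read 3957.9, 4105.8 and 3533.8 units in deficient libraries, against 5977.9, 5602.9 and 5567.6 in wild type (log2 fold change -0.56, SE 0.125, adjusted p = 0.047). Atp5g1, which encodes the ring subunit of ATP synthase, had a log2 fold change of -0.68 (adjusted p = 0.0393). With single libraries left out, the call of Sdhb was lost in 6 of 6 fits, those of Atp5g1 and Ndufa10 in 5 and that of Cox7a1 in 2. The highest adjusted p was 0.183 for Sdhb and 0.165 for Ndufa10 without wild type replicate 1, 0.166 for Atp5g1 without wild type replicate 2 and 0.0758 for Cox7a1 without wild type replicate 1. With the mean of its probe sets Ndufa10 was not called (adjusted p = 0.117). The calls of Atp5g1 and Sdhb were also lost under median centring (adjusted p = 0.0662 and 0.0639). Those of Atp5g1, Ndufa10 and Sdhb were lost under quantile normalization (0.0511, 0.0532 and 0.0587) and no filter (0.0872, 0.0642 and 0.109). Without the intensity trend 0 of the 46 were called.

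Of 25 ERR and PGC1 targets outside the respiratory chain, 5 fell, 0 rose and 20 did not pass, with a median of -0.46. Those that fell were Idh3a, Got1, Sod2, Ckmt2 and Vegfa, the last of them named after its values were seen. Got1, the cytosolic aspartate aminotransferase, read 1506.4, 1111 and 1579.3 units in deficient libraries, against 2755.6, 2771.3 and 2678.3 in wild type (log2 fold change -0.98, SE 0.168, adjusted p = 0.0204). Sod2, the mitochondrial superoxide dismutase, read 1174.5, 1398.7 and 1317.8 units in deficient libraries, against 2303, 2368.9 and 2241.3 in wild type (log2 fold change -0.82, SE 0.145, adjusted p = 0.0216). Vegfa, the angiogenic factor that PGC1 alpha induces in muscle, read 133, 139.3 and 202.8 units in deficient libraries, against 341.8, 290 and 386.7 in wild type (log2 fold change -1.04, SE 0.215, adjusted p = 0.0383). With single libraries left out, the calls of Sod2 and Vegfa were lost in 5 of 6 fits, those of Got1 and Ckmt2 in 4 and that of Idh3a in 2. The highest adjusted p was 0.0629 for Idh3a, 0.115 for Sod2 and 0.127 for Ckmt2 without wild type replicate 2, 0.106 for Got1 without wild type replicate 1 and 0.145 for Vegfa without deficient replicate 2. With the mean of its probe sets, Sod2 was at -0.52 and not called (adjusted p = 0.125). With no filter the calls of Ckmt2 (0.0727) and Vegfa (0.0522) were lost. Without the intensity trend those of Got1 (0.0616), Sod2 (0.0655), Ckmt2 (0.103) and Vegfa (0.0650) were lost. The difference between these medians and that of the regulators was not tested.

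Markers of other cells and fibre types moved with the groups beside these lists. Brown adipocytes, which are rich in PGC1 alpha and mitochondria, were read by 10 markers. Of the 8 tested, 3 fell, 1 rose and 4 did not pass, where 1.44% of all genes tested were called lower and 1.25% higher. Cox7a1, counted above with the respiratory chain, was among those that fell. Dio2 was the marker that rose, with means of 152 units in deficient and 44.5 in wild type libraries. Leaving out Cox7a1 and Cox8b, which muscle fibres also express, the other 8 measured markers summed to 553.9 to 628.1 units in deficient libraries and to 1049 to 2834.4 in wild type. Brightest among them in wild type were Ucp1 and Cidea, with means of 957 and 792 units. The means of Ucp1, Cidea, Elovl3 and Otop1 were lower in deficient libraries, and those of Dio2, Zic1, Slc27a2 and Kng1 higher. Zic1 and Kng1 did not pass the filter. Ucp1, the uncoupling protein that defines brown fat, read 43.8, 12.7 and 43.7 units in deficient libraries, against 1033.4, 356.7 and 1481.2 in wild type. Wild type replicate 3, the highest wild type library for Ppargc1a, was also the highest for Ucp1, while deficient replicate 3, the highest library of all for Ppargc1a, had 43.7 units of Ucp1. Slow fibre markers summed to 14597 to 24089 units in deficient and 9825 to 13771 in wild type libraries. Of these 9 markers 3 were called higher, beside 1.25% of all genes tested. Macrophage markers summed to 5000 to 14260 units in deficient and 3212 to 4972 in wild type libraries, with 1 of 12 called higher. Embryonic and regenerating muscle markers summed to 2388 to 5069 units in deficient and 290.7 to 728.6 in wild type libraries, with 4 of 8 called higher. No marker of these lists was at 0 in every array. Fibroblast, endothelial, white adipocyte and erythroid marker sums overlapped between the groups, as did that of hair follicle and skin. The part of these cells in the values of the regulators and their targets was not tested.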

How the data were processed

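Total RNA was extracted with TRIzol and RNeasy columns and labelled from 1 ug, per the labels' protocols. The authors deposited linear signal intensity per probe set for 6 Affymetrix arrays. The sources used here do not give the summarising algorithm. The mean of each array without its lowest and highest 2% was 100, so the arrays had been scaled. A pseudocount of 16 was added before log2 was taken. Array medians differed by at most 0.226 on that scale, under the 0.5 set for centring, so none was applied. Of 45101 probe sets, 64 were controls, 34945 had 1 symbol, 932 several and 9160 none. Symbols came from GEO's platform annotation and were updated to RefSeq GRCm38.p6 for 34741 probe sets. Of the listed pathway genes, 12 had no probe set with a single symbol here and were not analysed.

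Probe sets with a mean signal under the 40th percentile, 15 units, were left out. Deficient and wild type arrays were set against each other in R 4.3.3 with limma 3.58.1 (two-sided, trended prior variance, no block), per gene by its brightest probe set and per probe set. Every adjusted p is from limma. Steps were tested on simulated data. Named genes were all members, Lama2, the up to 4 genes of each list with the smallest p, Ucp1 and Eif2s3y, and the 4 genes most like the member with the smallest p. The members and lists were chosen with earlier results of these data known. The number of arrays limits the precision. Alternatives covered centring and quantile normalization, the filter, the pseudocount, the use of several probe sets, the variance prior, blocks for replicate number and Y-linked transcripts, and libraries left out. A filter on mean log2 values and a fit without replicate 3 of both groups were added after seeing the data.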

Additional observations from a re-analysis of the deposited data

How the results depend on the processing

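Of the 10 regulators, 0 were called under the 19 alternatives run for genes, and 0 of their probe sets under 18. Their signs were less firm. Esrrg kept its sign throughout, while the other 9 changed sign at least once, always uncalled. For Nrf1 the sign changed only in fits where another probe set, 1424787_a_at, became its brightest. With the mean of a gene's probe sets, the log2 fold changes were -0.26 for Ppargc1a, 0.017 for Esrra, 0.025 for Ppara and -0.025 for Tfam. With median centring Tfam was at -0.0060. Without wild type replicates 1 and 2, the libraries with hair follicle transcripts, they were -0.48 for Ppargc1a, -0.055 for Ppargc1b, -0.17 for Tfam and -0.076 for Mfn2, on 1 wild type library assumed to vary like the deficient ones. Without replicate 3 of both groups, chosen after seeing the data, they were -0.11 for Ppargc1a, -0.11 for Nrf1 and 0.047 for Ppara. With 1 library left out they ran from -0.37 to 0.50 for Ppargc1a, from -0.29 to 0.24 for Ppara, from -0.31 to 0.17 for Ppard, from -0.31 to 0.63 for Nrf1, from -0.10 to 0.22 for Tfam, from -0.28 to 0.081 for Gabpa and from -0.039 to 0.32 for Mfn2. For Nrf1 its brightest probe set differed between fits, so this range mixes 2 probe sets. Its negative values, here and without replicate 3 of both groups, were those of 1424787_a_at, which was at -0.16 with all arrays. The median of the PPAR targets, -0.12, ran from -0.46 to 0.015 with 1 library left out. The causes were not tested.

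The 353 changed genes became 216 with no filter, 159 without the intensity trend, 1144 with a block for Y-linked transcripts, 823 without replicate 3 of both groups, and 64 to 665 with 1 library left out. The 14 changed pathway genes became 9 under quantile normalization, 6 with no filter, 3 without the intensity trend, 39 with the Y-linked block, and 0 to 22 with 1 library left out. With that block 1 pathway gene rose, Yy1, and under the other alternatives 0 did. Replicate numbers are shared between the groups in the labels, but same-numbered libraries deviated together only in part (r = 0.13, -0.06 and 0.31), so they were not treated as pairs. With the replicate number as a block 855 genes, 24 pathway genes and 0 regulators were called. Among named genes this block added calls for Prkag3 (adjusted p = 0.00816), Prkab2 (0.0168), Camk2a (0.0124) and Endog (0.0458). The log2 fold change of Lama2 was -2.57 to -1.70 with 1 library left out. With 3 arrays a group, small differences are beyond what the intervals resolve.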
